A study of Mus musculus with 9 samples.

Results

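The messenger RNAs of the TGF-beta signalling chain were followed in microglia, the brain's own macrophages, from mice given ethanol as pups. The genes were chosen by symbol: the ligand Tgfb1, the receptors Tgfbr1 and Tgfbr2, the signal transducers Smad2, Smad3 and Smad4, the inhibitor Smad7, and the co-repressors Ski and Skil. All 9 of these genes were present among the 45664 symbols of the deposited count table, and all 9 passed the filter on low counts that left 13067 genes for testing.

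Each library held the microglia of 1 adolescent male C57BL/6 mouse, so there were 9 libraries from 9 mice of 3 litters. The EtOH group (n = 4) received ethanol under the skin of the back at 1.8 g per kg in a 20% v/v solution, 2 injections a day given 2 h apart, which made 3.6 g per kg a day from postnatal day 4 to day 9. The Saline group (n = 5) received an equal volume of saline on the same days. Both groups were then left without injections until the day of collection, at postnatal days 35, 35, 30 and 30 for EtOH 1 to EtOH 4 and days 36, 30, 35, 29 and 30 for Saline 1 to Saline 5. Visual cortex of both hemispheres was taken, and cells that excluded propidium iodide, carried CD11b and had little CD45 were sorted and lysed on collection. The labels name no transgene, deletion or other agent in either group. Which mouse came from which litter was not among the details used here, and the spread between mice includes that of sorting and library preparation.

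TGF-beta is secreted in a latent form and, once released, binds the type II receptor TGFBR2, which switches on the type I receptor TGFBR1. The active receptor phosphorylates SMAD2 and SMAD3, which join SMAD4 and enter the nucleus to regulate genes. SMAD7 blocks the receptor, and SKI and SKIL (also called SnoN) hold SMAD complexes in a repressive state. In mice, microglia depend on TGF-beta to keep their characteristic homeostatic genes on.

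Library totals ranged from 12816198 to 28859244 counts. The summed level of 6 microglial markers was 34809.5 to 40765 CPM in EtOH and 35770.4 to 40353 CPM in Saline, where CPM is a gene's counts scaled to a common library size with TMM, the trimmed mean of M values. Summed markers of other cell types were far lower. They reached 287 CPM for neurons, 262 CPM for oligodendrocytes, 173 CPM for astrocytes, 91.2 CPM for border macrophages, 87.4 CPM for endothelial cells and pericytes and 16.0 CPM for monocytes and neutrophils, for 6 markers each. The endothelial marker list had 1 gene at 0 in every library and the monocyte and neutrophil list had 2. Saline 1 had only 3.75 CPM of astrocyte markers and 3.31 CPM of neuron markers. EtOH 2 stood apart in a different way. In it 1256 of the 13067 genes were more than 2-fold below the mean of the other 8 libraries, against 122 to 741 genes in each of the other libraries by the same measure. Results are therefore given with and without EtOH 2.

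The coding sequences of the genes differ widely in base composition, and the stretches shown here are set beside the levels in EtOH 2 further on. Each is the 100 bases of spliced coding sequence with the highest GC content, read 5′ to 3′ from the GENCODE M21 transcript with the longest coding sequence (GRCm38). Capitals mark unbroken runs of 5 or more G or C bases.
Ski: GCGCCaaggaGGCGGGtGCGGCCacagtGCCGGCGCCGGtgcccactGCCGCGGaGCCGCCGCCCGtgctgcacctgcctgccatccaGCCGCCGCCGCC
Tgfb1: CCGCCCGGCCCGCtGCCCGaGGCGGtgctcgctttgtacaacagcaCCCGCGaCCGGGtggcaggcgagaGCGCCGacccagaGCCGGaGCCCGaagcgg
Smad3: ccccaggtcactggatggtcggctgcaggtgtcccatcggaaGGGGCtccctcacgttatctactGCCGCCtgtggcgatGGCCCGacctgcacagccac
Tgfbr1: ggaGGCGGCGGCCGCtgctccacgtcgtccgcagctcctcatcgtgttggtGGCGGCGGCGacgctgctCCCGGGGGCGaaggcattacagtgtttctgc
Skil: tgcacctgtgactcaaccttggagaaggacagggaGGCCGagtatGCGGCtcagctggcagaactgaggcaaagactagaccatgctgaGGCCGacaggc
The Ski stretch, with 81.0% GC, lies in exon 1 of 7 on the minus strand at chr4:155222270-155222369, and the Tgfb1 stretch, with 76.0% GC, lies in exon 1 of 7 on the plus strand at chr7:25688073-25688172. The Smad3 stretch (66.0% GC, minus strand, chr9:63667829-63757477) and the Tgfbr1 stretch (70.0% GC, plus strand, chr4:47353314-47383765) each join exon 1 to exon 2, so these coordinates span an intron. The Skil stretch has 59.0% GC and joins exon 6 to exon 7 on the plus strand at chr3:31117544-31118500. Runs of G and C covered 58 bases of the Ski stretch and 50 of the Tgfb1 stretch, but 32 of the Tgfbr1 stretch, 17 of the Smad3 stretch and 15 of the Skil stretch.

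The receptor Tgfbr1 had the highest level per length of the 9 genes and Smad2 the lowest. Levels of different genes were compared as CPM per kb of exon, the union of all annotated exons. Tgfbr1 averaged 439.8 ± 79.2 CPM per kb in EtOH and 490.5 ± 39.1 CPM per kb in Saline (SD, n = 4 and 5), which placed it 50th among 12408 annotated genes. Tgfbr2 followed with 162 ± 25.8 CPM per kb in EtOH and 157 ± 22.7 in Saline. The co-repressor Ski came next at 107 ± 59.1 CPM per kb in EtOH and 131 ± 21.6 in Saline. Its ranges over libraries overlapped those of Tgfbr2, but within every library Tgfbr2 had the higher level per length.

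The ligand Tgfb1 came next, at 41.2 ± 21.9 CPM per kb in EtOH and 53.6 ± 2.60 CPM per kb in Saline. Smad3, Skil and Smad4 lay close together, with Saline means of 38.6, 35.6 and 32.4 CPM per kb and overlapping ranges. Smad7 followed with a mean of 19.8 CPM per kb in EtOH (4.85 to 26.1) and 23.6 ± 1.76 CPM per kb in Saline. Smad2, at 10.1 ± 0.904 CPM per kb in EtOH and 9.65 ± 0.825 CPM per kb in Saline, was 4317th of the annotated genes. The receptor-regulated SMADs were thus unequal: Smad3 had the higher level per length in all 9 libraries, also in EtOH 2, where the values were 14.5 CPM per kb for Smad3 and 11.2 CPM per kb for Smad2. Without EtOH 2, the ranges of Ski and Tgfb1, of Tgfb1 and Smad3, and of Smad7 and Smad2 were separate, and those of Tgfbr2 and Ski, Smad3 and Skil, and Skil and Smad4 still overlapped. The order depends on the length used: with the mean transcript length in place of the union of exons only 4 of the 9 genes kept their place, and Ski came after Tgfb1 and Smad3.

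**Figure D1:**
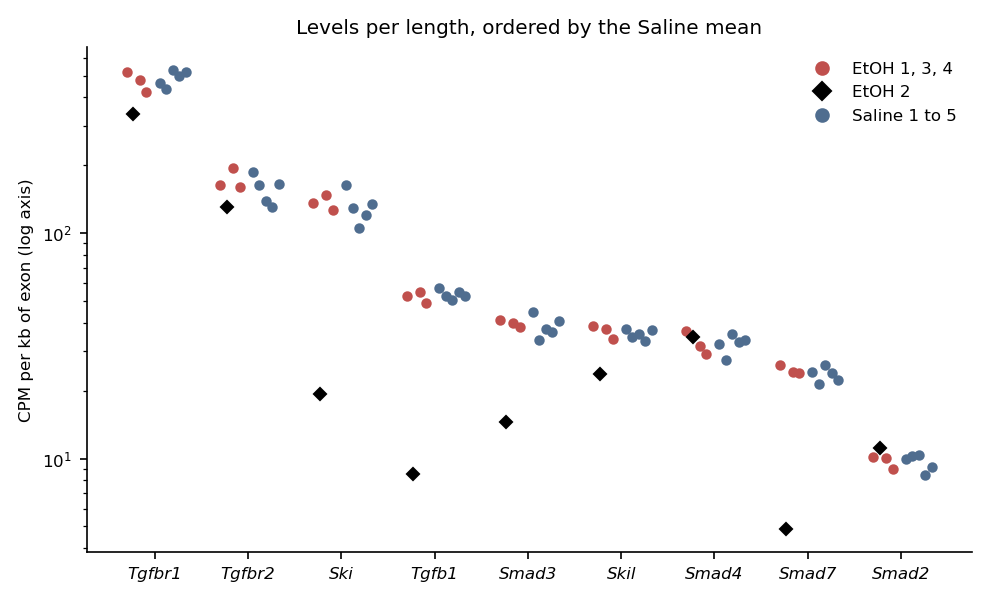
Levels of the 9 genes in each library, in CPM per kb of exon on a log axis, ordered by the Saline mean; red circles are EtOH 1, 3 and 4, black diamonds EtOH 2 and blue circles Saline 1 to 5. Tgfbr1 lies at 337 to 530 CPM per kb and Smad2 at 8.47 to 11.2 CPM per kb, and the EtOH 2 diamond lies far below the other libraries for Ski, Tgfb1, Smad3 and Smad7.

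The ligand gene Tgfb1 (ENSMUSG00000002603.15, GRCm38 chromosome 7, 25687002 to 25705077, plus strand) encodes TGF-beta 1, the main TGF-beta made by microglia. It measured 264, 43.0, 276 and 248 CPM in EtOH 1 to EtOH 4, against 288, 266, 254, 277 and 265 CPM in Saline 1 to Saline 5. EtOH 2 was low, and the other 8 libraries lay within 248 to 288 CPM, with the groups overlapping. In bulk RNA such as this, fewer cells of a type and less RNA per cell cannot be told apart. Ethanol over saline was a log2 fold change of -0.38 ± 0.40 (SE), with a 95% interval of -1.27 to 0.51 and an adjusted p of 0.963 by edgeR's quasi-likelihood test. Without EtOH 2 it was -0.04 ± 0.07 with an interval of -0.19 to 0.10 (edgeR, adjusted p = 1.00). On the linear scale, the ends of the interval without EtOH 2 are folds of 0.875 and 1.07.

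The type I receptor gene Tgfbr1 (ENSMUSG00000007613.15, chromosome 4, 47353222 to 47414931, plus strand) measured 3405, 2202, 3116 and 2772 CPM in EtOH 1 to EtOH 4, against 3024, 2862, 3461, 3270.5 and 3406 CPM in Saline 1 to Saline 5. EtOH 2 was the lowest library and EtOH 4 the next lowest, while EtOH 1 was level with the highest Saline libraries. The log2 fold change, ethanol over saline, was -0.16 ± 0.12 with EtOH 2 and -0.05 ± 0.08 without it. The type II receptor gene Tgfbr2 (ENSMUSG00000032440.13, chromosome 9, 116084293 to 116175360, minus strand) measured 1335, 1069, 1585 and 1307 CPM in EtOH 1 to EtOH 4, against 1537, 1333, 1141, 1066 and 1347 CPM in Saline 1 to Saline 5. Here EtOH 2 was matched by Saline 4. Over the 8 libraries other than EtOH 2, the SD of log2 CPM was 0.19 for Tgfbr2 and for Ski, the most variable of the 9 genes, and 0.07 for Tgfb1, the least variable. The log2 fold change of Tgfbr2, ethanol over saline, was 0.04 ± 0.13 with EtOH 2 and 0.13 ± 0.11 without it.

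Smad2 (ENSMUSG00000024563.16, chromosome 18, plus strand) and Smad3 (ENSMUSG00000032402.12, chromosome 9, 63646767 to 63757994, minus strand) encode the SMADs that the receptor phosphorylates. Smad2 measured 88.8, 98.2, 88.7 and 78.8 CPM in EtOH 1 to EtOH 4, against 87.1, 90.4, 91.4, 74.4 and 80.3 CPM in Saline 1 to Saline 5. EtOH 2 was the highest of all 9 libraries for Smad2. Its log2 fold change, ethanol over saline, was 0.07 ± 0.09 with EtOH 2 and 0.01 ± 0.09 without it. Smad3 measured 228, 80.5, 221 and 212 CPM in EtOH 1 to EtOH 4, against 248, 186, 209, 201 and 226 CPM in Saline 1 to Saline 5. EtOH 2 alone was low, with the other EtOH libraries inside the Saline range. The log2 fold change of Smad3 was -0.21 ± 0.25 with EtOH 2 and 0.04 ± 0.09 without it.

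Smad4 (ENSMUSG00000024515.13, chromosome 18, minus strand), the partner shared by the receptor-regulated SMADs, measured 136, 129, 117 and 108 CPM in EtOH 1 to EtOH 4, against 119, 102, 133, 122 and 125 CPM in Saline 1 to Saline 5. No library stood apart for Smad4. Its log2 fold change, ethanol over saline, was 0.03 ± 0.10 with EtOH 2 and 0.00 ± 0.10 without it. Smad7 (ENSMUSG00000025880.11, chromosome 18, plus strand), the inhibitory SMAD and itself a gene that TGF-beta induces, measured 118, 21.9, 109 and 108 CPM in EtOH 1 to EtOH 4, against 109.9, 96.9, 117, 108 and 101 CPM in Saline 1 to Saline 5. EtOH 2 was low, and EtOH 1 was the highest library. The log2 fold change of Smad7 was -0.26 ± 0.37 with EtOH 2 and 0.07 ± 0.08 without it.

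The co-repressor gene Ski (ENSMUSG00000029050.15, chromosome 4, 155154075 to 155222592, minus strand) measured 753, 108, 818 and 704 CPM in EtOH 1 to EtOH 4, against 912, 722, 587, 668 and 746 CPM in Saline 1 to Saline 5. EtOH 2 was low, and the highest and the next lowest library were both Saline. The log2 fold change of Ski, ethanol over saline, was -0.29 ± 0.44 with EtOH 2 and 0.06 ± 0.12 without it. Its relative Skil (ENSMUSG00000027660.16, chromosome 3, 31095058 to 31122577, plus strand) measured 375, 231, 363 and 328 CPM in EtOH 1 to EtOH 4, against 365, 335, 347, 321 and 359 CPM in Saline 1 to Saline 5. EtOH 2 was the lowest library for Skil too, but much nearer to the rest. The log2 fold change of Skil was -0.09 ± 0.12 with EtOH 2 and 0.04 ± 0.07 without it. No exon of the 9 genes overlapped an exon of another gene in GENCODE M21.

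**Figure D2:**
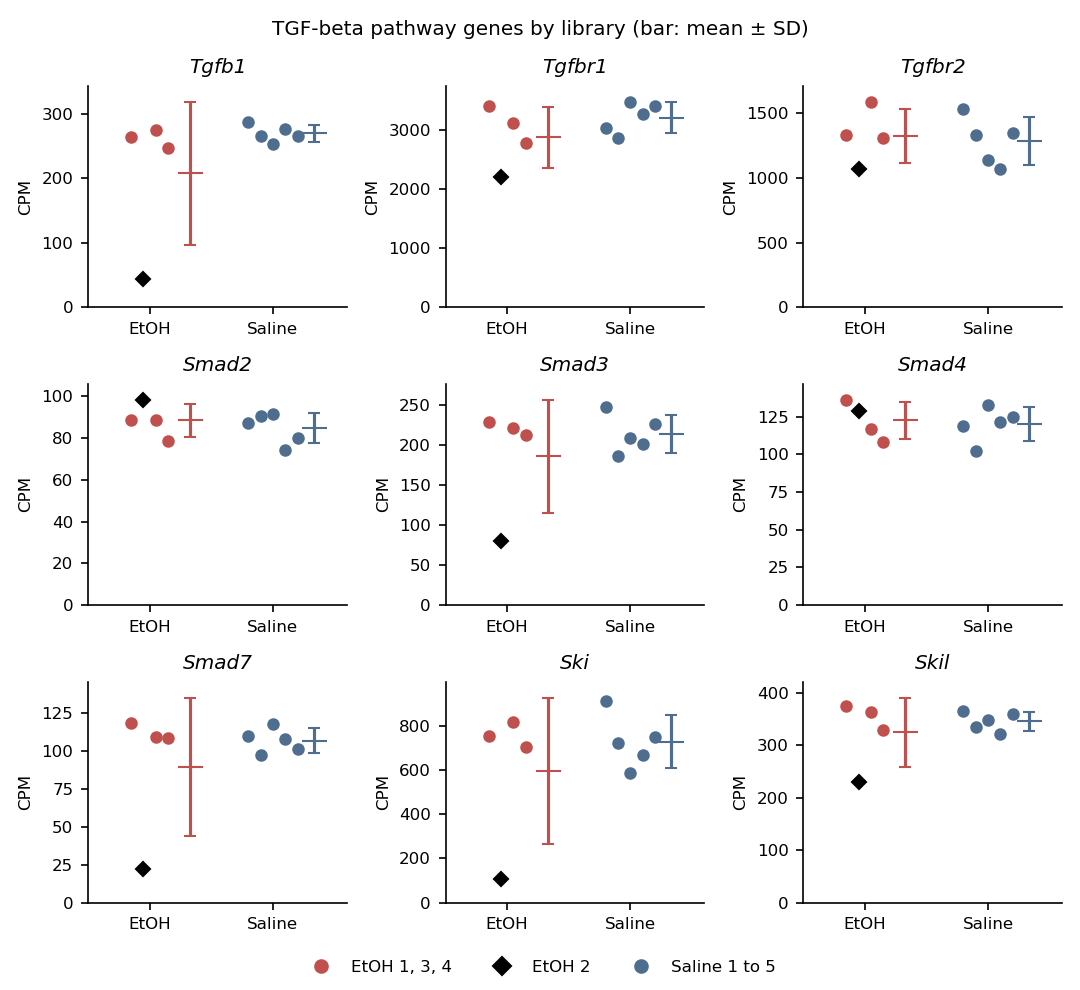
CPM (TMM-scaled) of the 9 genes in each library, EtOH left and Saline right, with the group mean and SD as a bar beside the points and EtOH 2 as a black diamond. EtOH 2 lies at 43.0 CPM for Tgfb1, 80.5 CPM for Smad3, 21.9 CPM for Smad7 and 108 CPM for Ski, while for Smad2 and Smad4 it lies at 98.2 and 129 CPM, at the top of the other libraries or among them.

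The study set out to compare microglia of ethanol-exposed mice with those of saline mice. In that comparison 0 of the 9 genes passed an adjusted p of 0.05 (edgeR quasi-likelihood test, Benjamini-Hochberg over all genes), with a background of 0 of 13067 genes (0%). At an unadjusted p under 0.05 the count was 0 of 9 genes as well, beside 386 of 13067 genes (2.95%). DESeq2 and limma-voom also called 0 genes. The median log2 fold change, ethanol over saline, was -0.16 over the 9 genes and 0.00 over all genes tested, with 6 of the 9 below 0. The EtOH and Saline libraries overlapped for each of the 9 genes. Over all genes, 0.65% had every EtOH library above every Saline library and 0.635% every EtOH library below.

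Without EtOH 2, 0 of the 9 genes passed, beside 0 of 13281 genes (0%). At an unadjusted p under 0.05 there were 0 of 9 genes and 367 of 13281 genes (2.76%), and DESeq2 and limma-voom called 0 genes. The groups again overlapped for each of the 9 genes, beside 1.33% of genes with every EtOH library above Saline and 1.41% with every EtOH library below. The median over the 9 genes was 0.04, with 2 of the 9 below 0. The 95% intervals were narrower without EtOH 2 for each of the 9 genes, most of all for Tgfb1, Smad3, Smad7 and Ski and only slightly for Smad4. That of Ski was -1.26 to 0.68 with EtOH 2 and -0.20 to 0.32 without it, and that of Smad7 was -1.08 to 0.57 with EtOH 2 and -0.10 to 0.24 without it. Without EtOH 2, the largest bound for a gene of the chain was that of Tgfbr2, a fold of 1.30. An adjusted p that misses the threshold does not show that the groups were alike.

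**Figure D3:**
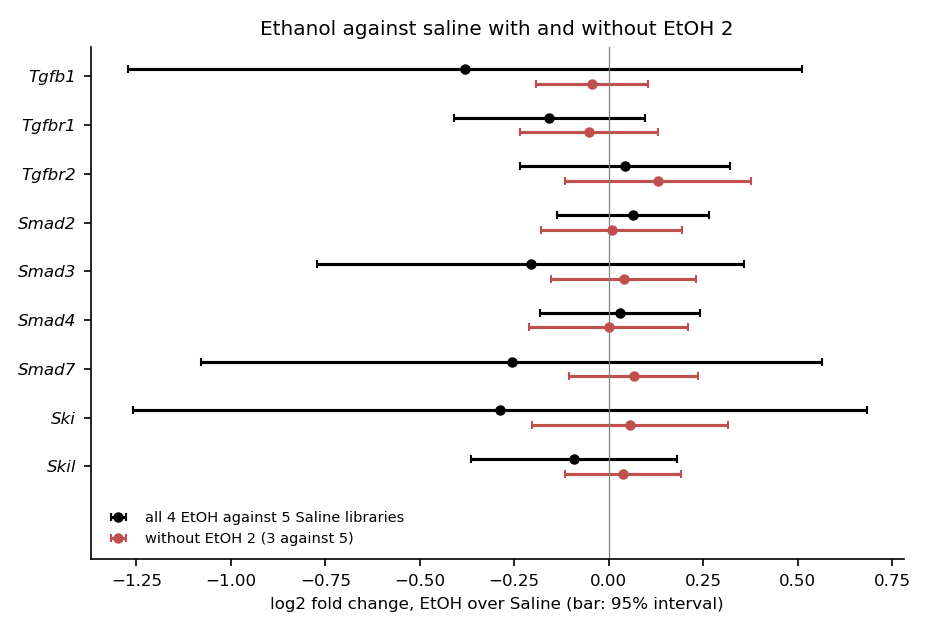
Log2 fold change of ethanol over saline for each of the 9 genes with its 95% interval (edgeR), in black for all 4 EtOH and 5 Saline libraries and in red without EtOH 2. Every interval spans 0, and for Tgfb1 the interval is -1.27 to 0.51 with EtOH 2 and -0.19 to 0.10 without it.

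EtOH 2 was an older mouse, and the library names end in 1-5-16 (EtOH 1, EtOH 2, Saline 3 and Saline 4), 1-6-16 (EtOH 3, EtOH 4, Saline 2 and Saline 5) or 1-X-16 (Saline 1), so ethanol was also compared within cohorts and within name endings. In the older cohort alone, the log2 fold changes of the 9 genes, ethanol over saline, ran from -0.82 for Tgfb1 and -0.80 for Ski to 0.07 for Smad4. In the younger cohort alone, which does not hold EtOH 2, they ran from -0.11 for Tgfbr1 to 0.21 for Tgfbr2. Among the libraries ending in 1-5-16 they ran from -0.79 for Tgfb1 to 0.17 for Smad2, and among those ending in 1-6-16 from -0.09 for Tgfbr1 to 0.14 for Smad7. None of the 9 genes passed the adjusted threshold in any of these edgeR fits, whose smallest adjusted p for them was 0.835. Saline 1 alone carries its name ending, and no ethanol library shares it.

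Age was the other labelled difference between the mice. Older mice (days 35 and 36, n = 4) were set against younger mice (days 29 and 30, n = 5) with ethanol as a covariate. By edgeR, 0 of the 9 genes passed an adjusted p of 0.05, beside 0 of 13067 genes (0%). At an unadjusted p under 0.05 there were 0 of 9 genes and 372 of 13067 genes (2.85%), and DESeq2 called 0 genes. Smad4 averaged 129 ± 7.33 CPM in older and 115 ± 9.44 CPM in younger mice (SD), a log2 fold change of 0.17 ± 0.09 (SE). Smad2 averaged 91.4 ± 4.88 CPM in older and 82.5 ± 6.83 CPM in younger mice, a log2 fold change of 0.14 ± 0.09. The other 7 genes had log2 fold changes of -0.34 (Tgfb1) to -0.02 (Tgfbr1), older over younger. Without EtOH 2 that of Tgfb1 was 0.01 and that of Ski 0.05, against -0.34 and -0.33 with it. Older and younger libraries overlapped for each of the 9 genes, beside 0.643% of all genes with every older library above and 0.597% with every older library below.

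The difference of the ethanol effect between the age cohorts passed for 0 of the 9 genes, beside 0 of 13067 genes (0%), and at an unadjusted p under 0.05 for 0 of 9 genes, beside 423 of 13067 genes (3.24%; edgeR). DESeq2 called 1 gene, which was not among the 9. The largest differences were -0.90 ± 0.89 (SE) for Ski, -0.80 ± 0.77 for Smad7 and -0.78 ± 0.82 for Tgfb1 on the log2 scale, older minus younger effect. Without the filter on low counts 53 genes passed, Ski among them with a difference of -0.89 (edgeR, adjusted p = 0.0172). These differences depended on which older EtOH mice entered the fit. Without EtOH 1, EtOH 2 is the only older EtOH mouse, so the older ethanol effect rests on 1 library. The differences were then -2.86 for Ski, -2.58 for Tgfb1, -2.44 for Smad7, -1.55 for Smad3 and -0.63 for Skil. They are not separate from the levels of these genes in EtOH 2. Without EtOH 2, EtOH 1 is the only older EtOH mouse. The differences were then -0.09 for Ski, 0.01 for Tgfb1, -0.04 for Smad7, -0.08 for Smad3 and 0.04 for Skil.

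EtOH 2 itself was described by its log2 CPM minus the mean log2 CPM of the other 8 libraries, with no test, since it is 1 library. Of the 9 genes, 4 were more than 2-fold lower in EtOH 2, beside 9.61% of the 13067 genes tested, and 0 were more than 2-fold higher, beside 1.44%. Ski was lowest, at 14.6% of the mean of the other 8 libraries, a log2 difference of -2.76. Tgfb1 was at 16.1% (-2.63), Smad7 at 20.2% (-2.30) and Smad3 at 37.2% (-1.42). Of all genes tested, 0.360% lay as low as Ski or lower, and 4.68% as low as Smad3 or lower.

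The remaining genes of the chain differed much less in EtOH 2. Skil was at 66.1% of the mean of the other 8 (log2 difference -0.60), Tgfbr1 at 69.6% (-0.52) and Tgfbr2 at 80.3% (-0.31). Smad4 was at 107% (0.11) and Smad2 at 116% (0.21). EtOH 2 was the lowest of the 9 libraries for Tgfb1, Tgfbr1, Smad3, Smad7, Ski and Skil, beside 25.6% of all genes, and the highest for Smad2, beside 22.7%. None of the 9 genes was more than 2-fold from the mean of the rest in any other library. Of the genes beyond the 2-fold limit Smad3, at -1.42, was nearest to it, and of those inside the limit Skil, at -0.60.

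Some pairs of genes with related roles were split in EtOH 2, but the receptor pair was not. Ratios here are of CPM per kb of exon. The ratio of Ski to Skil was 0.815 in EtOH 2 and 2.95 to 4.35 in the other 8 libraries. The ratio of Smad3 to Smad2 was 1.30 in EtOH 2 and 3.27 to 4.51 in the others. For the inhibitor over the common partner, Smad7 to Smad4, it was 0.140 in EtOH 2 and 0.667 to 0.822 in the others. The receptor ratio, Tgfbr1 to Tgfbr2, was 2.58 in EtOH 2 and lay within the 2.46 to 3.84 of the others. These ratios were chosen after the values were seen.

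The 4 low genes were those with the most GC-rich transcripts. Transcript GC content was 62.5% for Tgfb1, 56.9% for Smad7, 55.6% for Ski and 53.1% for Smad3, and 49.6% for Tgfbr2, 49.4% for Smad4, 44.9% for Smad2 and 41.0% for Skil and for Tgfbr1. Over the 9 genes the log2 difference in EtOH 2 correlated with transcript GC content at Pearson r = -0.80 and Spearman rho = -0.70, a description over 9 genes that share the same library. Within the coding sequence, runs of 5 or more G or C numbered 32.9 per kb in Smad7, 29.8 in Ski and 26.5 in Tgfb1. Tgfbr2 had 17.5 per kb, Smad3 16.5, Smad4 13.9, Smad2 7.14, Skil 5.93 and Tgfbr1 5.30. Tgfbr2 and Smad3 were alike in this count but not in EtOH 2. The stretches printed above are the most GC-rich 100 bases of each gene, so they do not show the density of runs over the coding sequence. Runs covered 58 bases of the Ski stretch, 50 of Tgfb1 and 15 of Skil. They covered 32 bases of the Tgfbr1 stretch but 17 of the Smad3 stretch, although only Smad3 was among the 4 low genes. In Tgfbr2, whose stretch is not printed, they covered 34 bases. GC content was looked at after the values were seen.

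Across the transcriptome, 12.9% of genes with a transcript GC content of at least 55% were more than 2-fold lower in EtOH 2, 9.15% of those at 50 to 55%, 6.02% of those at 45 to 50% and 3.68% of those under 45% (8200 annotated genes with a mean of at least 10 CPM). In the other libraries the highest share in any class was 0.614%. Length moved with it too: among transcripts of 3000 bases or more with at least 55% GC the share was 27.7%, which is the class of Ski and Smad7, and among shorter ones 3.86%, which is the class of Tgfb1. Over these genes Pearson r of the EtOH 2 difference was -0.17 with GC content and -0.46 with log2 transcript length. Over the 9 genes the relation with length ran the other way (Spearman rho = 0.48), as the longest transcripts, those of Tgfbr2 (8092 bases) and Smad2 (8089 bases), were not among the low ones. After a smooth trend on GC content and length was removed from each library, the log2 differences were -2.42 for Tgfb1, -2.07 for Ski, -1.81 for Smad7 and -0.94 for Smad3, and 768 genes, against 1256 before, were more than 2-fold lower. Smad3 then lay inside the 2-fold limit, which left 3 of the 9 genes beyond it. Tgfbr2 was at 0.43 after the removal, against -0.31 before, and Smad2 at 0.75, against 0.21 before. The part of base composition and length in the levels of EtOH 2 was not tested.

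**Figure D4:**
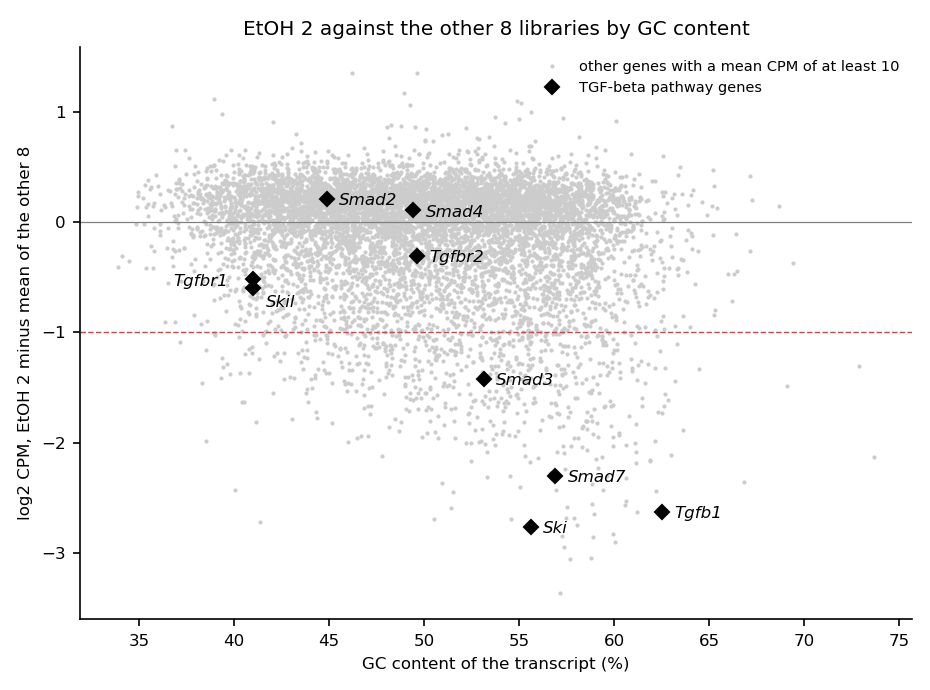
Log2 CPM in EtOH 2 minus the mean of the other 8 libraries (y axis) against transcript GC content in percent (x axis), for the 9 genes as black diamonds and other annotated genes with a mean of at least 10 CPM as grey points; the dashed line marks 2-fold lower. Tgfb1 (62.5% GC), Smad7 (56.9%), Ski (55.6%) and Smad3 (53.1%) lie below the line and the other 5 genes above it.

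Recorded properties of EtOH 2 lay within those of the other mice. Its RNA integrity number was 9.2, beside 9 to 9.9 in the others, its RNA concentration 238 pg per µl, beside 166 to 330 pg per µl, and 12579 cells were sorted, beside 8923 to 19071. Of the marker lists, summed levels in EtOH 2 were lowest of the 9 libraries for endothelial cells and pericytes (59.4 CPM, beside 68.8 to 87.4 CPM) and border macrophages (39.1 CPM, beside 40.1 to 91.2 CPM). They were highest for microglia (40765 CPM, beside 34809.5 to 40353 CPM). In the other 4 lists EtOH 2 lay within the other libraries. Their part in the levels of Tgfb1, Smad3, Smad7 and Ski in EtOH 2 was not tested.

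Further genes of the pathway were read from 8 lists with 69 genes, of which 59 were tested. In the ethanol comparison 0 of the 59 passed in either direction, 3 had an unadjusted p under 0.05, beside 2.95% of all genes tested, and the median log2 fold change of the 59 was -0.05, beside 0.00 over all genes. Without EtOH 2, 0 passed, 2 had an unadjusted p under 0.05, beside 2.76% of all genes tested, and the median was 0.02. Between older and younger mice, and for the difference of the ethanol effect between cohorts, 0 passed and 2 had an unadjusted p under 0.05 in each case, beside 2.85% of all genes for age and 3.24% for the difference. From 7 of the lists the gene with the highest level and the gene with the smallest ethanol p are described next, none of which passed the adjusted threshold (edgeR, smallest adjusted p = 0.963).

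Among ligands and parts of the latent complex, 6 of 8 genes had too few counts to be tested. Tgfb2 had 21 counts in all EtOH and 34 in all Saline libraries together, and Tgfb3 had 0 and 10, so Tgfb1 was the only TGF-beta gene above the filter. Nrros, whose protein tethers latent TGF-beta 1 to the microglial surface, averaged 366 ± 55.7 CPM in EtOH and 338 ± 65.1 CPM in Saline, a log2 fold change of 0.12 ± 0.15 (SE). EtOH 2, at 426 CPM, was among the higher libraries for Nrros, in contrast to Tgfb1. Ltbp3, a latent TGF-beta binding protein, averaged 3.24 ± 0.454 CPM in EtOH and 4.36 ± 0.776 CPM in Saline (-0.43 ± 0.21 log2).

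Of the genes that activate latent TGF-beta, 5 of 6 were tested. The integrin subunit gene Itgav averaged 394 ± 128 CPM in EtOH and 431 ± 33.4 CPM in Saline, a log2 fold change of -0.13 ± 0.20, and was at 219 CPM in EtOH 2 alone. Furin, the protease that cuts the TGF-beta precursor, measured 153, 40.2, 155 and 137 CPM in EtOH 1 to EtOH 4, against 143, 154, 152, 146 and 135 CPM in Saline 1 to Saline 5. It was low in EtOH 2 alone, a library in which 9.61% of all genes tested were more than 2-fold lower. Its log2 fold change was -0.27 ± 0.31 with EtOH 2 and 0.02 ± 0.07 without it.

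All 9 co-receptors and other receptors of the family were tested. Eng, the co-receptor endoglin, averaged 161 ± 50.1 CPM in EtOH and 189 ± 9.75 CPM in Saline, a log2 fold change of -0.23 ± 0.20, and -0.03 ± 0.07 without EtOH 2, in which it was at 85.9 CPM. Acvr2a, an activin receptor, averaged 42.0 ± 5.31 CPM in EtOH and 47.9 ± 6.29 CPM in Saline (-0.19 ± 0.12 log2). Of the other SMADs, 3 of 4 were tested, and Smad1, a transducer of bone morphogenetic protein signals, averaged 142 ± 11.8 CPM in EtOH and 133 ± 5.70 CPM in Saline (0.09 ± 0.08 log2). With 154 CPM in EtOH 2, Smad1 was at its highest there, as Smad2 was.

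The 16 SMAD cofactors and regulators were all tested. Pmepa1, a TGF-beta induced gene whose protein restrains SMAD2 and SMAD3, averaged 320 ± 122 CPM in EtOH and 358 ± 39.1 CPM in Saline. Its log2 fold change was -0.17 ± 0.25 with EtOH 2 and 0.07 ± 0.10 without it. Nedd4l, a ubiquitin ligase that acts on activated SMADs, averaged 22.0 ± 4.49 CPM in EtOH and 29.1 ± 6.16 CPM in Saline (-0.40 ± 0.18 log2). In the TAK1 branch, the kinase gene Map3k7 averaged 81.8 ± 5.68 CPM in EtOH and 85.1 ± 3.04 CPM in Saline (-0.06 ± 0.08 log2), and its partner Tab3 averaged 17.0 ± 2.59 CPM in EtOH and 19.6 ± 1.51 CPM in Saline (-0.21 ± 0.13 log2).

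Target genes of TGF-beta were read as well. Of the general TGF-beta targets, 8 of 10 were tested. Junb averaged 263 ± 56.4 CPM in EtOH and 224 ± 57.5 CPM in Saline (0.23 ± 0.19 log2). Cdkn1a, a cell cycle inhibitor, averaged 8.77 ± 0.507 CPM in EtOH and 6.25 ± 0.570 CPM in Saline, a log2 fold change of 0.49 ± 0.14 with an adjusted p of 0.963 (edgeR). Its lowest EtOH library, at 8.33 CPM, was above its highest Saline library, at 7.00 CPM, as was the case for 0.65% of all genes tested. Cdkn1a was named for the smallest ethanol p of its list, so this separation is not separate evidence. Without EtOH 2 its log2 fold change was 0.45 ± 0.16. Of the microglial genes known in mice to depend on TGF-beta, all 11 were tested, with a median log2 fold change of 0.07.

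In EtOH 2, 8 of the 59 pathway genes had a log2 CPM more than 1 below the mean log2 CPM of the other 8 libraries, beside 9.61% of all genes, and 1 had a log2 CPM more than 1 above it, beside 1.44%. By log2 difference the low ones were Furin (-1.86), Hipk2 (-1.38), Rnf111 (-1.34), Pmepa1 (-1.30), Trim33 (-1.16), Id3 (-1.13), Eng (-1.12) and Acvr1 (-1.03), of which Id3, at 0.124 CPM in EtOH 2, lay inside the 0 to 1.28 CPM of the others. The higher one by this measure was Itgb8 (1.14), but its 1.12 CPM in EtOH 2 lay inside the 0 to 2.04 CPM of the others, whose mean was 0.839 CPM, so the log2 difference rests on libraries at or near 0. Hipk2, Rnf111, Trim33, Id3, Acvr1 and Itgb8 are named because of these values. Among the 11 TGF-beta dependent microglial genes none was more than 2-fold lower or higher. Sall1, a transcription factor of microglial identity, was at 481 CPM in EtOH 2, beside 736 to 930 CPM in the others (-0.77). P2ry12 (0.34) and Tmem119 (0.09), surface protein genes of resting microglia, were not lower there. Sall1, P2ry12 and Tmem119 were chosen after their values were seen.

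**Figure D5:**
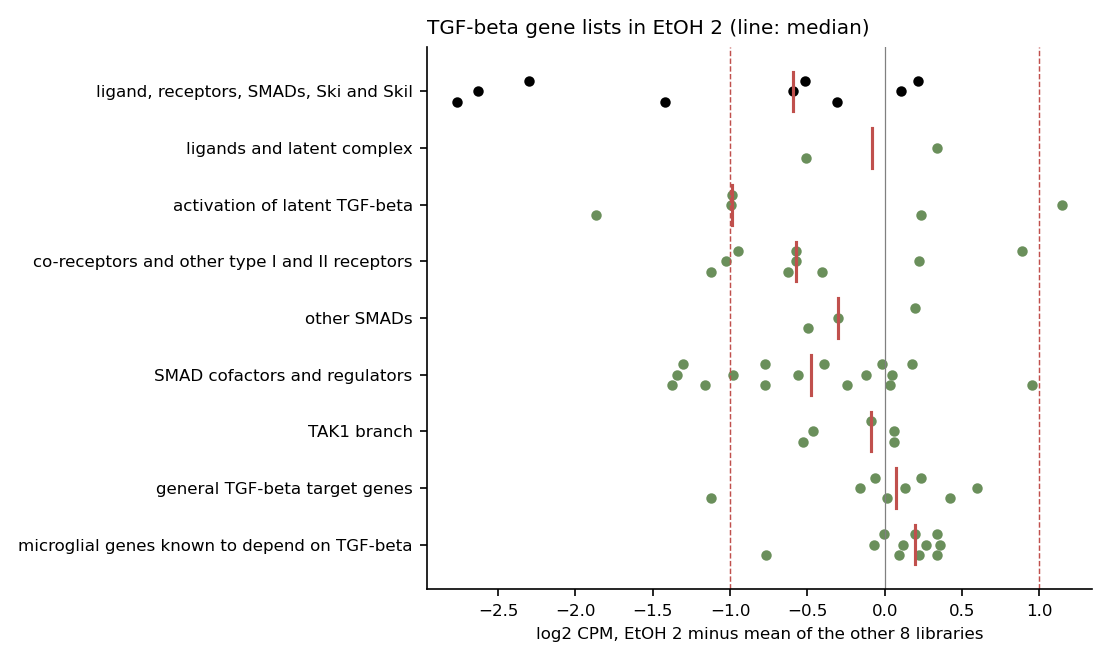
Log2 CPM in EtOH 2 minus the mean of the other 8 libraries for the 9 genes of the chain (black) and the tested genes of the 8 pathway lists (green), with each list's median as a red line and 2-fold limits dashed. The 9 genes have a median of -0.60 with 4 beyond 2-fold lower, whereas the 11 TGF-beta dependent microglial genes have a median of 0.20 with none beyond 2-fold.

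The 9 genes varied together more with EtOH 2 than without it. Over 9 libraries the Pearson r of log2 CPM between pairs of the genes had a median of 0.56, with a highest value of 0.99 for Tgfb1 and Smad7. Over the 8 libraries without EtOH 2 the median was 0.37 and the range -0.35 to 0.91. Tgfb1 and Smad7 then had r = -0.14, and the highest pair was Tgfbr1 and Smad4. These values describe the libraries, which share depth and composition effects, and carry no test.

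The genes most like Ski over 9 libraries were Plxnb2 (r = 0.999), Vasp (0.998) and Chsy1 (0.997), among 8206 genes with a mean of at least 10 CPM. Over the 8 libraries without EtOH 2 they were Cd82 (0.996), Mapkapk2 (0.981) and Abcg1 (0.980). Those most like Tgfb1 were Upf1 (0.998), Prex1 (0.997) and Phf2 (0.997) over 9 libraries, and Zxdc (0.987), Eno1 (0.969) and Tpi1 (0.949) over 8. All 6 genes named over 9 libraries were more than 2-fold lower in EtOH 2, with log2 differences of -1.30 for Prex1 to -3.36 for Phf2 and transcript GC contents of 53.2% (Chsy1) to 58.0% (Vasp). None of the 6 named over 8 libraries was more than 2-fold lower or higher in EtOH 2, with log2 differences of -0.44 (Abcg1) to 0.33 (Tpi1). Ski and Tgfb1 were themselves far lower in EtOH 2, so a high r over 9 libraries favours genes that are low there. The contrast between these sets therefore goes with how they were chosen and is no separate result. With rank correlation in place of Pearson r, only 1 of the 12 choices was the same.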

How the data were processed

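RNA sequencing counts were analysed for 9 libraries, 1 per mouse (4 EtOH, 5 Saline). The authors deposited raw counts, the number of reads assigned to each gene symbol, in 1 table without normalization. The tools listed are Trimmomatic 0.32, STAR 2.4.2a and HTSeq 0.6.1, with GRCm38.p4 as the build, per the submitters' processing notes. Settings, gene annotation and strand use: not given in the sources used here. All 9 columns were used.

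Genes were filtered with filterByExpr of edgeR at a count of 10 and a total of 15, and libraries scaled by TMM. Tests were quasi-likelihood F tests of edgeR 4.0.16 in R 4.3.3, with robust dispersions, adjusted by Benjamini-Hochberg over all genes tested, threshold 0.05. SEs are the log2 fold change over the root of F, and 95% intervals use the degrees of freedom of the test. The common coefficient of variation was 0.208. Without EtOH 2, filter, scaling and fit were redone on 8 libraries. EtOH 2 was described by log2 CPM (prior count 2) minus the mean of the other 8. Similarity was Pearson r of log2 CPM. The tests weigh a group difference against the spread between mice, which includes that of sorting and library preparation. Litter was not in the fits, so mice were treated as independent.

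Coordinates, exon lengths, GC contents and sequences were taken by symbol from GENCODE M21 (GRCm38), which matched 95.0% of the genes tested. The GC and length trend was a loess fit per library (span 0.3). No table of protein sequences was used here.

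The 9 genes, the pathway lists and the marker lists were chosen with earlier results of these data known. Named pathway genes were, in each list, the one with the highest mean CPM and the one with the smallest ethanol p. Named similar genes were the 3 with the highest r to Tgfb1 and to the gene lowest in EtOH 2, over 9 and over 8 libraries, with predicted genes and pseudogenes passed over. 1 gene that the rule names is not reported here. Other genes are said to be chosen after their values were seen.

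Alternatives included DESeq2 1.42.0, limma-voom (limma 3.58.1) with weights for each library, other size factors and count filters, age cohort or library-name ending as a covariate or alone, the replicate number as a block, the GC and length trend, other lengths and ranks, and leaving out each library in turn. The fits were tested on simulated counts with known changes. Chi-square tests of counts between libraries of a group found every pair different by far more than counting error, so each library counts as 1 sample.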

Additional observations from a re-analysis of the deposited data

Results flagged for a closer look

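EtOH 2 lay far from the other 3 EtOH mice for 6 of the 23 named genes of the chain and its pathway lists. The measure was the gap to the nearest value over the group's range, set against Dixon's 95% limit (0.829 for 4 values). Ski was at 108 CPM in EtOH 2, with 704 CPM in the next lowest EtOH library (gap over range 0.840). Tgfb1 was at 43.0 CPM, with 248 CPM in the next (0.880). Smad7 was at 21.9 CPM, with 108 CPM in the next (0.899), and Smad3 at 80.5 CPM, with 212 CPM in the next (0.889). Of the pathway genes, Furin was at 40.2 CPM, with 137 CPM in the next (0.840), and Eng at 85.9 CPM, with 179.8 CPM in the next (0.890). Chance alone gives such a gap in about 1 in 20 groups, and 46 group and gene combinations were looked at. That rate does not hold for EtOH 2, which was already known to stand apart. In it 1256 of the 13067 genes tested (9.61%) were more than 2-fold lower. The share of all genes past Dixon's limit was not computed, so the 6 are no result about the pathway. All 6 fell in the same library, so they are not separate events. No Saline library was far from the rest by this measure for any of these genes.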

How the results depend on the processing

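The counts of genes past the threshold stayed at 0 for ethanol against saline under all 15 alternatives and every left-out library. No label says that replicate numbers pair the mice. Deviations of same-numbered EtOH and Saline libraries correlated at -0.17 to 0.01, which cannot decide whether mice were paired by litter or handling. With the replicate block 0 genes passed, with EtOH 2 and without it. Exact two-sided permutation tests of each of the 9 genes gave unadjusted p-values of at least 0.0952, where the smallest possible with all libraries is 0.00794. Depth limits little here, since the lowest count of a gene of the chain was 529, for Smad7 in EtOH 2.

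Without EtOH 2, ethanol against saline gave 1 gene with the library-name ending as a covariate and 103 among libraries ending in 1-5-16, where EtOH 1 alone stands for its group and is assumed to vary like the others. None of the 9 genes was among these. Without a count filter 97 genes passed for age, none of the 9 among them, and 53 for the interaction of ethanol and age, Ski among them (-0.89, adjusted p = 0.0172, edgeR). DESeq2 gave 1 gene for the interaction, and leaving out each library in turn gave 0 to 848, the highest without EtOH 1. With the GC and length trend removed, 768 genes were more than 2-fold lower in EtOH 2. With mean transcript lengths 4 genes kept their place by level, and with rank correlation 1 similar gene stayed. The cause of these shifts was not tested.

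The log2 fold changes named next had the opposite sign to the main value, and none passed the threshold in either fit. For ethanol these were, with limma-voom, Skil 0.0255, Itgav 0.0432 and Pmepa1 0.043, and in the older cohort Tgfbr2 -0.16. In the younger cohort they were Smad3 0.0804, Smad4 -0.0449, Smad7 0.091, Ski 0.0927, Skil 0.0293, Itgav 0.11, Furin 0.00873, Eng 0.0234, Smad1 -0.0187, Pmepa1 0.13 and Junb -0.13. Among libraries ending in 1-6-16 they were Smad2 -0.0303, Smad3 0.0709, Smad4 -0.00823, Smad7 0.14, Ski 0.0504, Itgav 0.0897, Furin 0.013, Eng 0.0438 and Pmepa1 0.11. With the trend removed Map3k7 was 0.0156, and with the replicate block as well 0.0243.

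For ethanol without EtOH 2, Smad4 was -0.00693 with limma-voom, -0.00341 with plain library sizes, -0.00159 without a count filter, -0.0449 in the younger cohort, -0.00823 in 1-6-16, -0.0596 with the replicate block and -0.0547 with block and trend. Tgfbr1 was 0.0728 in the older cohort and 0.0199 in 1-5-16. Tgfbr2 (-0.00164) and Smad2 (-0.00435) changed sign in the older cohort, Smad2 (-0.0303) and Skil (-0.00619) in 1-6-16, and Smad7 (-0.00373) with the replicate block.

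Leaving out each library in turn also changed signs. For ethanol the log2 fold changes ranged over -0.0547 to 0.13 for Tgfbr2, -0.32 to 0.0403 for Smad3, -0.0235 to 0.0847 for Smad4, -0.42 to 0.0658 for Smad7, -0.48 to 0.0571 for Ski, -0.16 to 0.0385 for Skil, -0.28 to 0.0645 for Itgav, -0.41 to 0.0217 for Furin and -0.35 to 0.0699 for Pmepa1. The positive end came without EtOH 2 in each of these except Smad4. Without EtOH 2 they ranged over -0.13 to 0.0209 for Tgfbr1, -0.0321 to 0.0629 for Smad2, -0.00231 to 0.10 for Smad3, -0.0962 to 0.0713 for Smad4, -0.00749 to 0.15 for Ski and -0.0033 to 0.0923 for Skil. For age they ranged over -0.72 to 0.0134 for Tgfb1, -0.11 to 0.0974 for Tgfbr1, -0.21 to 0.0284 for Tgfbr2, -0.33 to 0.13 for Smad3, -0.54 to 0.15 for Smad7, -0.71 to 0.0463 for Ski and -0.13 to 0.0937 for Skil. For the interaction they ranged over -2.58 to 0.00595 for Tgfb1, -0.42 to 0.18 for Tgfbr1, -0.0496 to 0.14 for Smad2 and -0.63 to 0.0407 for Skil.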
